A study of Mus musculus with 16 samples.

Results

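The genes described here mark the blood vessels of the mouse dorsal root ganglion (DRG). They are the endothelial genes Pecam1, Cldn5, Cdh5, Kdr, Flt1, Tek and Ly6c1, and the pericyte genes Pdgfrb, Rgs5 and Cspg4, chosen by name from the 52636 genes counted in every library. RNA from L3-6 DRGs of male C57BL/6J mice was sequenced in 16 libraries, with 1 mouse per library and 4 mice in each of 4 groups. The mice had sham surgery or tibial spared nerve injury (SNI), in which branches of the sciatic nerve are cut and the tibial branch is left intact. From 4 weeks after surgery, as the design text states (the methods give 4 months), they received saline or the tricyclic antidepressant desipramine (DMI, 15 mg/kg i.p., BID) for 3 weeks, which gave the saline groups Sham-Saline and SNI-Saline, and the drug groups Sham-DMI and SNI-DMI. All mice were wild type and all received injections, and their age was 3 to 4 months per the study's methods. The libraries of DMI mice carry the numbers 17 to 24 and those of saline mice 33 to 40. Each group holds its own run of numbers, with Sham-DMI 17 to 20, SNI-DMI 21 to 24, SNI-Saline 33 to 36 and Sham-Saline 37 to 40. Neither drug nor surgery can thus be told apart from library number.

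Endothelial cells line the vessels and pericytes wrap around the capillaries. The endothelium of the ganglion is more permeable than that of the brain or the nerve, so blood-borne proteins and cells can reach sensory neurons there. Vascular endothelial growth factors act through the receptors encoded by Flt1 and Kdr, angiopoietins act through the receptor encoded by Tek, and platelet-derived growth factor B from the endothelium holds pericytes in place through the receptor encoded by Pdgfrb. Pecam1 and Cdh5 encode adhesion proteins of the contacts between endothelial cells, and Cldn5 encodes the claudin of their tight junctions. Ly6c1 encodes a small surface protein of capillary endothelium and of some leukocytes. Rgs5 encodes a regulator of G-protein signalling that is abundant in pericytes, and Cspg4 encodes the NG2 proteoglycan, which precursors of oligodendrocytes also carry. Pdgfrb is also made by fibroblasts.

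In short, 3 of the 10 genes passed the test in a comparison of groups. Ly6c1 was higher in SNI-Saline than in Sham-Saline, and Tek and Flt1 were lower in Sham-DMI than in Sham-Saline. None of the 10 passed in SNI-DMI versus SNI-Saline. These shares lie close to or below those of all genes tested, which are given with each comparison.

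Reads on genes ran from 41194238 to 73920332 per library, or 79.56% to 81.17% of all read pairs, and 21371 genes passed the filter on low counts. All 10 genes passed it, and their lowest count in a library was 271, for Tek. The labels name the spinal cord as tissue and DRG as cell type. The summed level of 10 sensory neuron markers was 9360 to 11900 CPM (counts scaled to a common library total) over the libraries. That of 8 oligodendrocyte and spinal cord markers was 11.6 to 37.1 CPM, and 4 of them (Opalin, Olig2, Chat, Slc6a5) did not pass the filter. A list of 22 other endothelial markers was measured in full, with 211 to 317 CPM in sum. Averaged over genes, libraries of a group differed by far more than counting error. The chi-square per gene was 9.7 to 40.4 over the 24 pairs of replicates, and this average need not hold for each gene. Among the vascular genes 2 libraries stood apart. Sham-Saline replicate 3 held the highest value of the series for 6 of the 10 genes, and Sham-DMI replicate 1 held the lowest for 6. Values without either of them are given beside the results that moved most.

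The level of a gene relative to other genes was read as CPM per kb of its merged exons. Rgs5 was the highest of the 10 at 37.8 ± 5.55 CPM per kb (SD, n = 16 libraries) and exceeded 93.3% of the genes tested. Cldn5 followed with 16.2 ± 2.38, Pdgfrb with 8.22 ± 0.808, Ly6c1 with 7.95 ± 1.49 and Cdh5 with 3.96 ± 0.801 CPM per kb. Pecam1 had 2.32 ± 0.292, Flt1 1.74 ± 0.284, Cspg4 1.71 ± 0.232, Tek 1.53 ± 0.245 and Kdr 1.12 ± 0.163 CPM per kb. Over the 16 libraries the range of Rgs5 did not overlap that of Cldn5, and the range of Cldn5 did not overlap that of Pdgfrb. Pdgfrb and Ly6c1 did not separate, since Pdgfrb was the higher in 10 of 16 libraries, and neither did Flt1 and Cspg4, with Flt1 the higher in 8 of 16. The other neighbours kept their order in 13 to 16 of the libraries although their ranges overlapped. Per kb, the receptors Flt1, Tek and Kdr were thus among the 4 lowest of the 10 genes, and the junction gene Cldn5 stood far above them.

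**Figure D1:**
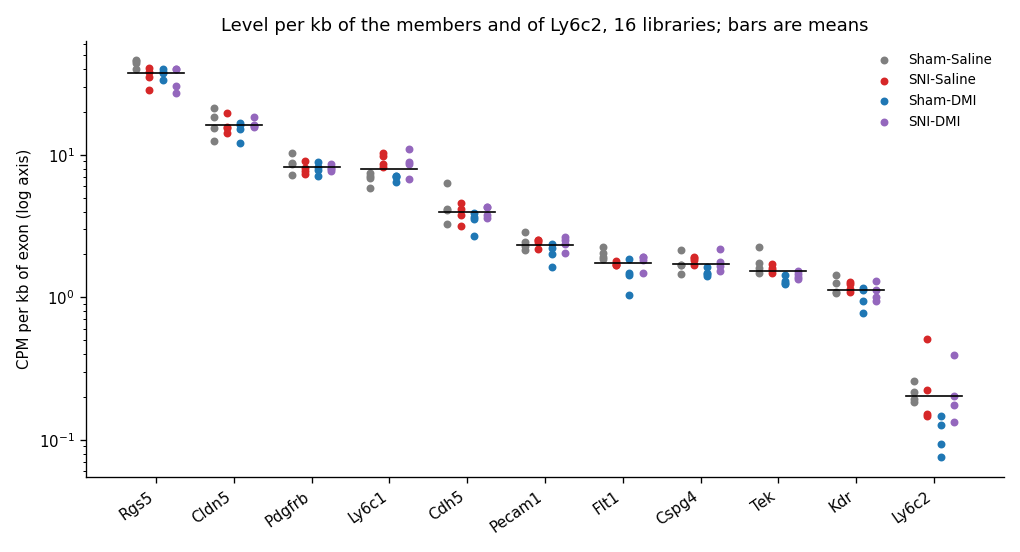
Level in CPM per kb of merged exons (log axis) of the 10 genes and of Ly6c2, with 1 point per library coloured by group and a bar at the mean of 16 libraries. Rgs5 is highest at 37.8 and Kdr lowest of the 10 at 1.12 CPM per kb, and the near copy Ly6c2 lies at 0.202.

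Ly6c1 has a near copy, Ly6c2, on the same chromosome. Ly6c1 lies at chr15:75044018-75048830 on the minus strand of GRCm38 and Ly6c2 at chr15:75108158-75111970 on the same strand. Their coding sequences, each of 396 bases in the GENCODE M21 transcripts, are identical at 97.7% of positions. The first 90 bases are shown because they hold 6 of the differences by which a read can be given to one copy, and these bases are in capitals.
Ly6c1: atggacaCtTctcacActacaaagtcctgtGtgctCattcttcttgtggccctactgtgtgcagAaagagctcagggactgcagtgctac
Ly6c2: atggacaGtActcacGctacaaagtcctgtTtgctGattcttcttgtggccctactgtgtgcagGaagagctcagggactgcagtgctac
Of the 50-base windows of the Ly6c1 transcripts, 32.8% also occur in transcripts of Ly6c2, Ly6a or Ly6i, so a read that falls wholly in these stretches cannot be placed. How the authors' counting treated such reads is not given in the sources used here, and the values of Ly6c1 are uncertain in that respect. Ly6c2 was measured at 0.206 to 1.4 CPM, against 9.77 to 18.5 CPM for Ly6c1. Of the other 9 genes, Pecam1 shares 1.54% and Flt1 0.119% of such windows with another gene, and the remaining 7 share none. No exon of the 10 genes overlaps an exon of another gene, although an antisense gene, Gm29682, lies within the span of Cdh5.

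The angiogenic receptors were examined first. Flt1, whose product binds vascular endothelial growth factor and placental growth factor, lies at chr5:147561604-147726011 (GRCm38, minus strand) with 33 merged exons. Its CPM was 25.8, 27.7, 30.5 and 25.2 in the Sham-Saline mice and 23.2, 24.4, 22.7 and 22.6 in the SNI-Saline mice. It was 14.1, 25.2, 19.4 and 20.1 CPM in the Sham-DMI mice and 24.6, 19.9, 25.7 and 25.7 CPM in the SNI-DMI mice. Sham-Saline was the highest group, and the lowest value of the series came from Sham-DMI replicate 1, with replicate 2 of that group just under the lowest Sham-Saline mouse.

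Kdr, the main signalling receptor for vascular endothelial growth factor A, lies on the same chromosome at chr5:75932827-75978458 on the minus strand. It was measured at 9.76, 11.4, 13 and 9.68 CPM in Sham-Saline and at 9.86, 10.3, 11.5 and 11.1 CPM in SNI-Saline. The DMI groups had 6.97, 10.5, 8.54 and 10.2 CPM after sham and 10.1, 8.44, 9.04 and 11.8 CPM after SNI. All 4 groups overlapped.

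Tek, which encodes the angiopoietin receptor Tie2, lies at chr4:94739289-94874976 on the plus strand with 23 merged exons. It had 6.99, 8.21, 10.6 and 7.59 CPM in Sham-Saline and 7.55, 7.0, 8.1 and 7.32 CPM in SNI-Saline. It had 5.81, 6.13, 6.77 and 5.93 CPM in Sham-DMI and 7.25, 6.49, 6.91 and 6.33 CPM in SNI-DMI. Every Sham-DMI mouse lay below every Sham-Saline mouse, and Sham-Saline replicate 3 stood well above the rest.

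The 250 bases before the start of these receptor genes are shown, for Flt1 and Tek because they passed the test after DMI in sham mice and for Kdr as the other growth factor receptor. They come from RefSeq promoters on GRCm38.p6, at chr5:147726012-147726261 (minus strand) for Flt1, chr5:75978456-75978705 (minus strand) for Kdr and chr4:94739039-94739288 (plus strand) for Tek. Capitals mark GGAA on either strand (GGAA or TTCC), the core letters bound by ETS factors.
Flt1: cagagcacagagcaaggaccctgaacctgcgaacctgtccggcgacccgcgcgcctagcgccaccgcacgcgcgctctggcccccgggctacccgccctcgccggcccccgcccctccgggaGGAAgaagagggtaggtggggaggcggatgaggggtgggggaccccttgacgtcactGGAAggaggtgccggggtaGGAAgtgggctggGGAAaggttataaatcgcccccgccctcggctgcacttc
Kdr: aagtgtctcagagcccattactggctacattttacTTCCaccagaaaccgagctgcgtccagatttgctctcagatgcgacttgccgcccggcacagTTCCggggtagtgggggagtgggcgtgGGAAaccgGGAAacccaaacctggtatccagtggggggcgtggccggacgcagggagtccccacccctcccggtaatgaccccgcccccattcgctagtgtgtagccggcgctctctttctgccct
Tek: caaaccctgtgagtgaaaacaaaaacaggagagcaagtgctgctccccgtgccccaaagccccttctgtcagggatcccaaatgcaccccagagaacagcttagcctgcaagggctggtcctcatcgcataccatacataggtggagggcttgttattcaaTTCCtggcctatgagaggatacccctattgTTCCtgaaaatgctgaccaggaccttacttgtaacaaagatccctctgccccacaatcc
Flt1 and Kdr each hold 4 such cores and Tek holds 2. Of all 32851 promoters 93.4% hold at least 1, 33.4% hold at least 4 and 76.8% hold at least 2, so these counts are common. Ly6c1 has 2 starts, with 6 and 4 cores, and 8.69% and 33.4% of all promoters hold at least as many. Rgs5 holds 3 cores, Cspg4 holds 1 and Cldn5 holds 0. The longer AGGAAG, which contains the core, occurs in 29.5% of all promoters. Flt1 holds 2 of it, and 6.25% of all promoters hold at least 2. The start of Ly6c1 with 6 cores holds 3, and 1.22% of all hold at least 3. Tek, Kdr, Cldn5, Rgs5, Cspg4 and the other start of Ly6c1 hold none. TATAAA occurs in Flt1, at the start of Ly6c1 with 4 cores, and in 12.4% of all promoters. Promoters were examined for 7 of the 10 genes, and those of Pecam1, Cdh5 and Pdgfrb were not examined. A match is a description of the letters and not a site of binding.

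Among the junction genes, Pecam1 (chr11:106654217-106750628, minus strand) had 14.3, 15.2, 17.9 and 13.3 CPM in Sham-Saline and 13.5, 15.8, 15.1 and 15.6 CPM in SNI-Saline. It had 10.1, 14.7, 12.6 and 13.7 CPM in Sham-DMI and 16.4, 12.8, 14.7 and 15.8 CPM in SNI-DMI. Its group means thus ran from 12.8 ± 2.0 CPM in Sham-DMI to 15.2 ± 1.97 CPM in Sham-Saline (SD, n = 4), and all groups overlapped. Cdh5, the vascular endothelial cadherin at chr8:104101625-104144511 on the plus strand, had 13.7, 17.3, 26.6 and 17.5 CPM in Sham-Saline and 13.2, 15.8, 19.4 and 17.5 CPM in SNI-Saline. It had 11.4, 14.8, 16.4 and 15.5 CPM in Sham-DMI and 18.1, 15.1, 18.2 and 16 CPM in SNI-DMI. The value of 26.6 CPM in Sham-Saline replicate 3 stood above those of the other 15 mice, the next of which was 19.4 CPM. Cldn5, a gene of 1 exon at chr16:18776847-18778262 on the plus strand, ran from 17.2 to 30.0 CPM over the 16 mice, with group means of 21.3 ± 2.84 CPM in Sham-DMI and 23 ± 3.39 to 23.9 ± 5.36 CPM in the other groups.

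Ly6c1 had its higher values in the SNI groups. It had 11.9, 12.6, 9.77 and 11.5 CPM in Sham-Saline against 16.5, 13.7, 14.5 and 17.4 CPM in SNI-Saline. After DMI it had 11.7, 11.9, 10.8 and 11.9 CPM in sham mice against 14.9, 11.3, 14.4 and 18.5 CPM in SNI mice. Under saline every SNI mouse exceeded every sham mouse, while under DMI SNI-DMI replicate 2 fell among the sham mice.

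Of the pericyte genes, Rgs5 (chr1:169655501-169695813, plus strand) had 209, 181, 206 and 201 CPM in Sham-Saline and 161, 130.0, 174 and 185 CPM in SNI-Saline. It had 182, 171, 153 and 173 CPM in Sham-DMI and 123, 181, 182 and 139 CPM in SNI-DMI. Sham-Saline had the highest mean, 199 ± 12.6 CPM, and SNI-DMI split into a pair of mice near 181 CPM and a pair at 139 CPM or lower. Pdgfrb (chr18:61045150-61085061, plus strand) was the steadiest of the 10 genes, with 39.1 to 56.3 CPM over all mice and a highest value only 1.44 times the lowest. Its group means were 47.7 ± 6.86 CPM in Sham-Saline and 43.8 ± 4.01 to 44.5 ± 2.24 CPM in the others. Cspg4 (chr9:56865033-56899870, plus strand) ran from 16.7 to 25.9 CPM, with means of 20.8 ± 3.5 CPM in Sham-Saline, 21.7 ± 1.2 CPM in SNI-Saline, 17.8 ± 1.26 CPM in Sham-DMI and 21.3 ± 3.29 CPM in SNI-DMI.

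**Figure D2:**
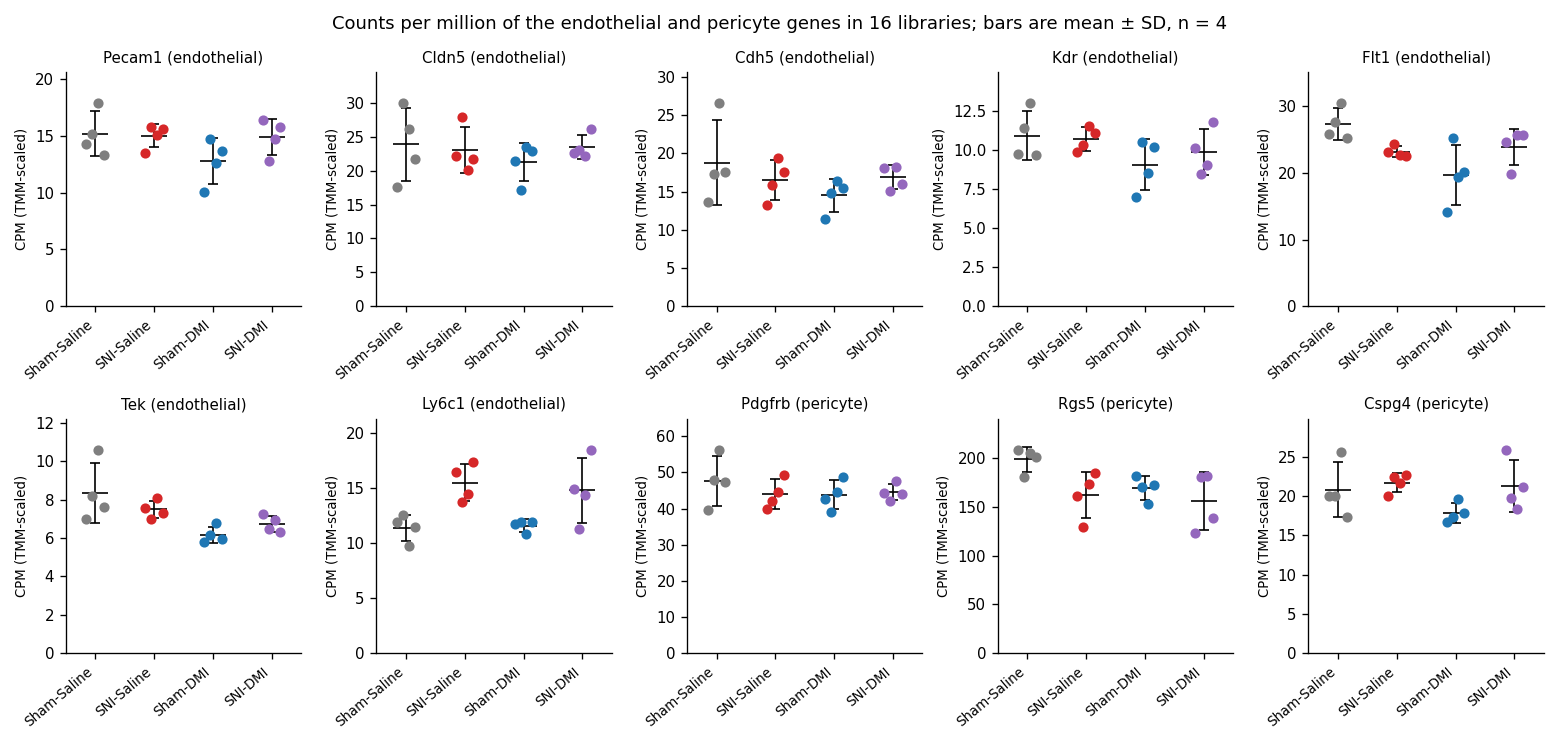
CPM of each gene in each of 16 libraries, scaled with TMM factors, by group, with axes that start at 0, black bars at the group mean and error bars of 1 SD (n = 4). Ly6c1 is higher in the 4 SNI-Saline mice (13.7 to 17.4 CPM) than in the 4 Sham-Saline mice (9.77 to 12.6 CPM), and Tek is lower in the Sham-DMI mice (5.81 to 6.77 CPM) than in the Sham-Saline mice (6.99 to 10.6 CPM).

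Differences between groups were tested with edgeR's quasi-likelihood test over all genes, with Benjamini-Hochberg adjustment and a threshold of 0.1. The DEG rule of the study, a nominal p below 0.05 with a log2 fold change of 0.32 or more in size, was counted beside it. The 4 comparisons share groups, so a gene that is extreme in Sham-Saline moves in both comparisons that use it, and they are not independent of one another. In whole ganglia fewer cells of a type and less RNA per cell cannot be told apart.

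SNI-Saline versus Sham-Saline asks what nerve injury alone does. Ly6c1 rose by 0.44 ± 0.121 on the log2 scale (SE), a 1.36-fold increase, with an adjusted p of 0.0422. It was the only one of the 10 genes to pass, in a comparison in which 12.0% of all genes passed and 5.85% of all genes passed upward. Ly6c1 was also the only gene to meet the DEG rule, which 7.15% of all genes met. The next smallest p was that of Rgs5, with a log2 fold change of -0.29 ± 0.115 and an adjusted p of 0.132. The groups did not overlap for Ly6c1 and, in the other direction, for Flt1, whose log2 fold change was -0.24 ± 0.123 with an adjusted p of 0.262, where 15.4% of all genes had groups without overlap. Tek had -0.16, Cdh5 -0.19, Pdgfrb -0.12, Cldn5 -0.06, Kdr -0.03, Pecam1 -0.02 and Cspg4 0.06, with adjusted p from 0.432 to 0.956. The median of the 10 genes was -0.086 on the log2 scale and that of all genes -0.001. It turned to 0.022 without Sham-Saline replicate 3, and was -0.175 without Sham-Saline replicate 1 and -0.042 without SNI-Saline replicate 1.

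The call of Ly6c1 after injury rested on single mice and on the model. It was lost without Sham-Saline replicate 3 (0.39, adjusted p = 0.123), without SNI-Saline replicate 1 (0.42, 0.112) and without SNI-Saline replicate 4 (0.38, 0.107), and when trends with GC content and length were removed (0.37, 0.105). Genes of myeloid cells moved with it. Of 9 macrophage markers 4 rose (Cd68, Aif1, C1qa and C1qb, by 0.72 to 0.77 on the log2 scale), and their summed level was 93.0 to 109 CPM in Sham-Saline and 118 to 204 CPM in SNI-Saline. All 4 of these calls were lost when replicate 1 or 3 of Sham-Saline or replicate 2 of SNI-Saline was left out, and with GC and length trends removed, while the median of the 9 was 0.432 and 0.158 to 0.575 without a library. None of 9 neutrophil and monocyte markers passed in this comparison, and their sum overlapped, at 15.5 to 43.2 and 19.7 to 57.9 CPM. Their part in the result for Ly6c1 was not tested. Ly6a, a relative of Ly6c1 that marks endothelial and progenitor cells, rose by 0.83 ± 0.168 after injury (adjusted p = 0.0151), from 10.1 ± 0.44 to 17.9 ± 2.0 CPM, and passed without any single library. Under DMI it rose by 0.79 ± 0.169 (0.0739), a call lost in 4 fits without a library and with the replicate number as a block. Ly6a is one of the genes whose transcripts share windows with Ly6c1.

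SNI-DMI versus Sham-DMI asks the same of injury under the drug. No gene of the 10 passed in edgeR or in DESeq2, where 0.402% of all genes passed in edgeR, and 3 had a nominal p below 0.05 against 12.1% of all genes. These 3 were Ly6c1 (log2 fold change 0.35 ± 0.121, adjusted p = 0.271), Cspg4 (0.25 ± 0.11, 0.369) and Flt1 (0.28 ± 0.123, 0.375). Ly6c1 met the DEG rule, as did 5.41% of all genes. None of the 10 had groups without overlap, against 5.04% of all genes. The difference for Ly6c1 had the direction it had under saline, and a gap between both was not detectable, at -0.09 ± 0.17 on the log2 scale with an adjusted p of 0.908. Of the 10 genes 9 had a higher mean in SNI-DMI, with a median of 0.182 where that of all genes was 0.001, and Rgs5 had -0.12 ± 0.115. Without Sham-DMI replicate 1 the higher ones were 7 of 10 and the median was 0.107.

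**Figure D3:**
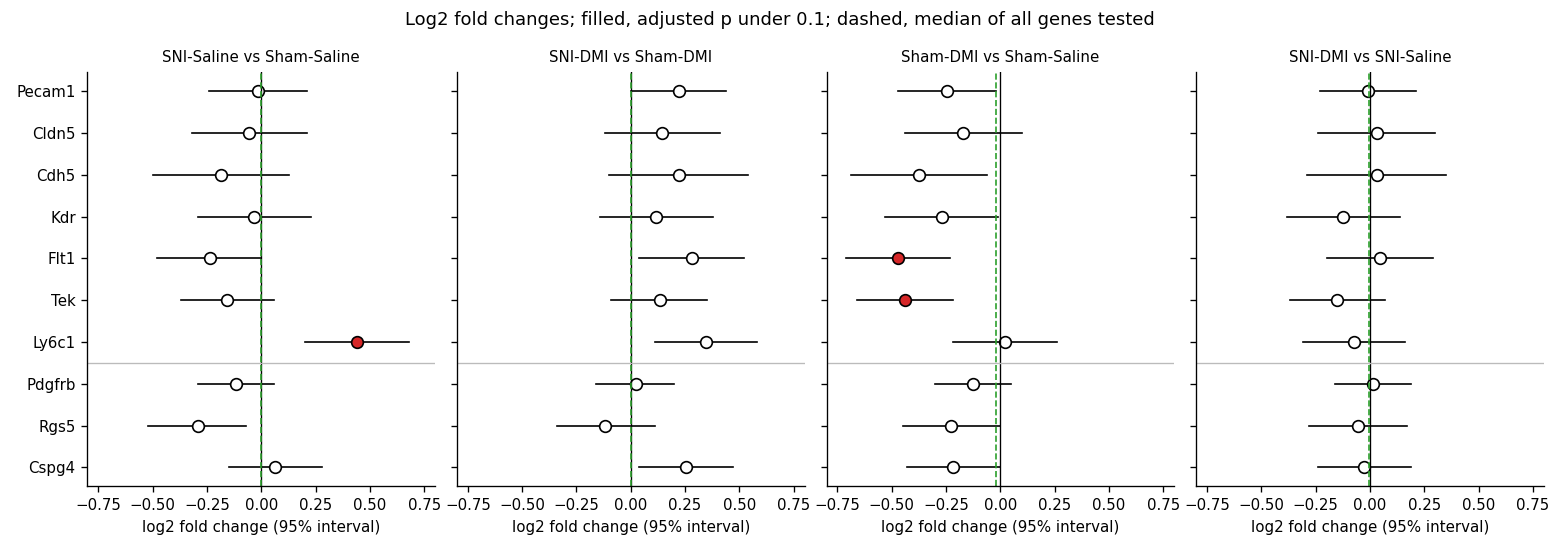
Log2 fold change with its 95% interval for the 10 genes in 4 comparisons, endothelial genes above the grey line and pericyte genes under it. Filled points passed an adjusted p of 0.1, and the green dashed line is the median of all genes tested. Ly6c1 after injury (0.44), Flt1 (-0.47) and Tek (-0.44) in Sham-DMI versus Sham-Saline are the filled points.

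Sham-DMI versus Sham-Saline asks what DMI does in uninjured mice. Tek fell by 0.44 ± 0.112 and Flt1 fell by 0.47 ± 0.123 on the log2 scale, to 0.737 and 0.722 of the Sham-Saline level, with adjusted p of 0.0136 and 0.0156. They were 2 of 10, in a comparison in which 23.4% of all genes passed and 11.9% passed downward, so the share of these genes was near that of the background. Both also met the DEG rule, together with Cdh5 (-0.37 ± 0.163, adjusted p = 0.127), against 11.5% of all genes. Tek and Flt1 were the 2 genes whose groups did not overlap, against 17.1% of all genes. Pecam1 had a log2 fold change of -0.25 ± 0.114 and Kdr one of -0.27 ± 0.133, with adjusted p of 0.152 and 0.178. The pericyte genes Rgs5 (-0.23 ± 0.115) and Cspg4 (-0.22 ± 0.11) had values of like size, Pdgfrb had -0.12 ± 0.0909 and Cldn5 -0.17 ± 0.137, all above the threshold. Ly6c1 stood at 0.02 ± 0.121. Of the 10 genes 9 thus had a lower mean after DMI, where 53.3% of all genes did, and their median was -0.237 where that of all genes was -0.021. Without Sham-Saline replicate 3 the median was -0.139. Genes that vary together among mice do not count separately in such a tally.

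Both calls held without any single library, and the sizes of both depended on single mice. Without a library Tek ran from -0.5 to -0.29 and Flt1 from -0.6 to -0.32. Without Sham-Saline replicate 3 Tek had -0.29 (adjusted p = 0.0714) and Flt1 -0.39 (0.069), while Cdh5, Pecam1 and Kdr dropped to -0.14, -0.14 and -0.16. Without Sham-DMI replicate 1 Tek had -0.4 (0.0545) and Flt1 -0.32 (0.0483). With trends of GC content and length removed both held at -0.35 to -0.36, whereas over all genes that fit moved the share of upward calls from 49.4% to 81%. Other cell types moved in the same comparison. Of 9 neutrophil and monocyte markers 6 fell, with a summed level of 15.5 to 43.2 CPM in Sham-Saline and 8.02 to 19.7 CPM in Sham-DMI. Only 3 fell without Sham-DMI replicate 1 or replicate 3, and 4 without Sham-DMI replicate 4 or without Sham-Saline replicate 1, 2 or 4. None of 5 red cell markers passed, at 34.9 to 127 and 27.7 to 107 CPM, with a median of -0.492. Without Sham-DMI replicate 2 all 5 fell, with a median of -1.151, and without Sham-Saline replicate 3 1 fell. None of 7 fibroblast markers passed, although all 7 had a lower mean, with a median of -0.282, and 2 fell without Sham-Saline replicate 1 and 1 without Sham-DMI replicate 4. Of 9 macrophage markers 1 fell, a call that was lost without 6 of the libraries in turn. The part of any of these in the vascular values was not tested.

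SNI-DMI versus SNI-Saline asks what DMI does in mice with nerve injury. None of the 10 genes passed in edgeR or in DESeq2, none had a nominal p below 0.05, none met the DEG rule and none had groups without overlap. Of all genes 2.93% passed, 18.5% had a nominal p below 0.05, 5.73% met the DEG rule and 13.3% had groups without overlap. Tek had the largest difference, -0.15 ± 0.112 on the log2 scale with an adjusted p of 0.485, and Cdh5, Cldn5 and Pdgfrb had 0.03, 0.03 and 0.01. The 95% intervals of the 10 genes lay between -0.38 and 0.35. A true difference anywhere within a gene's own interval remains compatible with its values. The median of the 10 genes was -0.019, or -0.044 to 0.034 without a library, and that of all genes -0.005.

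Whether the effect of DMI differed between sham and SNI mice was tested as a contrast of both effects. None of the 10 genes passed in edgeR or DESeq2, and 0.0% of all genes did in edgeR. Flt1 alone had a nominal p below 0.05 and met the DEG rule, with a difference of 0.52 ± 0.174 and an adjusted p of 0.619, against 7.92% and 3.45% of all genes. A difference between sham and SNI mice in the response of Flt1 or Tek to DMI was thus not shown. Averaged over both surgeries, Tek was lower after DMI by a log2 difference of -0.3 ± 0.0792 (adjusted p = 0.0123) and Flt1 by one of -0.21 ± 0.087 (0.0872), in a comparison in which 30.6% of all genes passed and 15.8% passed downward. The call of Flt1 there was lost in 13 of the 16 fits that left out a library, with -0.14 to -0.27 on the log2 scale over the 16, while that of Tek held in every one. Kdr had an average difference of -0.2 ± 0.0938 with an adjusted p of 0.143.

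The genes were also compared with each other over the mice of a group. The log2 CPM of each gene was centred on its group means, and Pearson's r and Spearman's rho were computed over 16 libraries for the 45 pairs, with a permutation test within groups and adjustment over the pairs. The pair with the closest relation was Pecam1 and Kdr, with r = 0.9 and rho = 0.89 (permutation p = 0.00019 for r and 0.00034 for rho, adjusted p = 0.00855 and 0.0153). Without Sham-Saline replicate 3 and Sham-DMI replicate 1 it kept r = 0.84. Pecam1 and Flt1 had r = 0.88 and rho = 0.83 (permutation p = 0.00102 and 0.00147, adjusted p = 0.0229 and 0.0331), and r = 0.81 without those libraries. Kdr and Flt1, the receptors for the same growth factor, had r = 0.8 and rho = 0.78 (permutation p = 0.00279 and 0.00384, adjusted p = 0.0314 and 0.0501), and r = 0.72 without the 2 libraries farthest from the median. The junction gene Cdh5 went with Tek, at r = 0.83 and rho = 0.75 (permutation p = 0.0026 and 0.00533, adjusted p = 0.0314 and 0.0501), and at r = 0.59 without 2 Sham-Saline mice.

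In all, 8 of 45 pairs passed, all with a positive r: 6 of the 21 endothelial pairs, 2 of the 21 pairs of an endothelial and a pericyte gene, and none of the 3 pericyte pairs. With Spearman's rho 6 of 45 passed. The other passing pairs were Pecam1 with Cdh5 (r = 0.7) and Cspg4 (0.65), and Cdh5 with Pdgfrb (0.78) and Kdr (0.64). Ly6c1 and Rgs5 stood outside this group, since no pair with either passed and their r ran from -0.47 to 0.28. Cldn5, although a tight junction gene of the same cells, had r between -0.47 and 0.47 with the other genes and passed with none. All pairs come from the same libraries and share their depth and scaling.

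**Figure D4:**
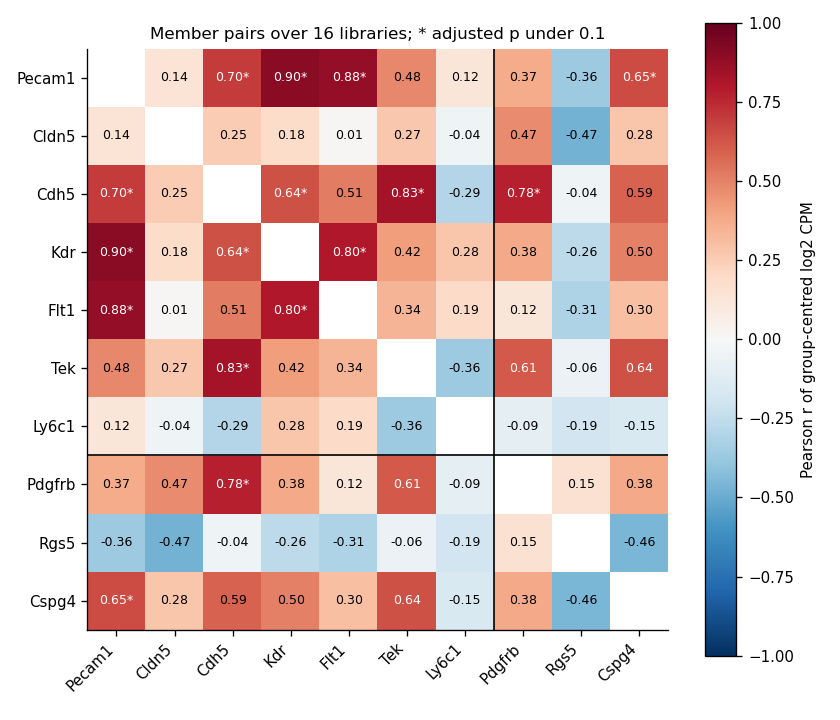
Pearson's r between the 10 genes over 16 libraries after removal of the group means, endothelial genes before the black lines and pericyte genes after them, with stars at an adjusted p under 0.1. Pecam1, Kdr and Flt1 form a block of r = 0.8 to 0.9, and the rows of Ly6c1 and Rgs5 hold no star.

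The 15614 genes with a mean of at least 1 CPM were then ranked, with group means removed as above, by their r with the mean of the 7 endothelial genes. The closest outside the lists were Cand2 (r = 0.936, rho = 0.91), Svil (0.922, 0.73), Nid1 (0.917, 0.89), Axl (0.91, 0.87) and Tiam1 (0.898, 0.83), over 16 libraries. The gene at rank 1000 still had r = 0.555, so a like pattern was common. Nid1 encodes the basement membrane protein nidogen and Axl a receptor tyrosine kinase. For the mean of the 3 pericyte genes the closest were Ltbp4 (r = 0.843), Dact2 (0.841), Usp6nl (0.816), Sdk1 (0.815) and Bicc1 (0.812), with r = 0.431 at rank 1000.

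The ligands and coreceptors of the same pathways were read from a list of 17 genes, all of which passed the filter. After injury alone, where 12.0% of all genes passed, Angpt1, the activating ligand of Tie2, was the only one of the 17 to pass. It had a log2 fold change of -0.53 ± 0.175 (adjusted p = 0.0784), from 4.53 ± 1.26 to 3.14 ± 0.31 CPM. Without Sham-Saline replicate 3 its value was -0.31 and the call was lost, as it was in 6 other fits without a library. The call was also lost with the replicate number as a block and with GC and length trends removed. Vegfa, the main ligand of Kdr, stayed within 88.9 to 93.8 CPM in group means and had log2 differences of -0.08 ± 0.0791 after injury and 0.06 ± 0.0791 for DMI after SNI. Angpt2, the context-dependent ligand of Tie2, had 0.15 ± 0.0998 after injury, and Pdgfb, the endothelial ligand for pericytes, had 0.19 ± 0.1, both above the threshold.

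In Sham-DMI versus Sham-Saline 6 of the 17 pathway genes passed, 2 upward and 4 downward. Of all genes 23.4% passed there and 11.9% passed downward. Pdgfa rose by 0.31 ± 0.0549 (adjusted p = 0.00247), from 40.6 ± 2.13 to 50.3 ± 3.27 CPM. Pgf, which encodes placental growth factor, a ligand of Flt1, rose by 0.42 ± 0.115 (0.0183), from 9.06 ± 1.42 to 12.1 ± 1.11 CPM. Ptprb, which encodes the phosphatase that restrains Tie2, fell by 0.74 ± 0.191 (0.0148), from 26.1 ± 6.51 to 15.6 ± 3.75 CPM. Angpt1 fell by 0.61 ± 0.176 (0.0245), Flt4, the receptor of lymphatic vessels, fell by 0.61 ± 0.246 (0.0973) and Nrp2, a coreceptor, fell by 0.16 ± 0.0517 (0.0461). Without Sham-Saline replicate 3 the calls of Angpt1 (-0.39, 0.132), Nrp2 (-0.1, 0.27) and Flt4 (-0.42, 0.329) were lost, and those of Nrp2 and Flt4 were also lost without 5 and 12 other libraries in turn. With GC and length trends removed Angpt1 (-0.33, 0.269), Nrp2 (-0.05, 0.563) and Flt4 (-0.57, 0.121) did not pass, while Pdgfa, Pgf and Ptprb did.

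In SNI-DMI versus SNI-Saline, where 2.93% of all genes passed, Pdgfa was the only pathway gene to pass. It rose by 0.2 ± 0.0548 (adjusted p = 0.0885), from 43.0 ± 2.23 to 49.5 ± 0.825 CPM. The call was lost in 10 of the 16 fits without a library. It was also lost with the replicate number as a block and with GC and length trends removed. None passed in SNI-DMI versus Sham-DMI. The other ligands and receptors, Vegfb, Vegfc, Vegfd, Nrp1, Tie1, Pdgfc and Pdgfra, passed in no comparison, with log2 differences between groups from -0.28 to 0.39. Pdgfd passed only in the average over both surgeries, with -0.62 ± 0.164 (adjusted p = 0.0116).

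Lists of further vascular genes were counted in the same way. The lists share genes (Ptprb, Tie1, Eng, Notch3, Flt4 and Pdgfra), so their counts are not independent of each other. Which cells of the ganglion made the RNA of a listed gene was not tested. In Sham-DMI versus Sham-Saline 23.4% of all genes passed and 11.9% passed downward. Of 22 other endothelial markers, 7 fell in Sham-DMI versus Sham-Saline, none rose, and the median was -0.256. Adgrl4, an adhesion receptor of endothelium, fell by 0.73 ± 0.172 (adjusted p = 0.00932) and Adgrf5 fell by 0.32 ± 0.0816 (0.0146). Of the most abundant per kb, Egfl7 (10.4 CPM per kb) had 0.2 with an adjusted p of 0.117. In SNI-DMI versus SNI-Saline none of the 22 passed, with a median of -0.129. In Sham-DMI 3 of the 22 fell without Sham-Saline replicate 3 and 4 fell without Sham-DMI replicate 1, and the count ran up to 9 without Sham-DMI replicate 2.

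In Sham-DMI versus Sham-Saline, where 11.9% of all genes passed downward, 6 of 13 Notch and TGF-beta genes of vessels fell and none rose. Their median was -0.331. Bmpr2, a receptor of bone morphogenetic proteins, fell by 0.41 ± 0.0899 there (adjusted p = 0.00653) and by 0.46 ± 0.0899 after injury (0.0118). Its fall after DMI was not seen with GC and length trends removed (-0.09, 0.19), and that after injury remained (-0.24, 0.0122). The count of 6 became 2 without Sham-Saline replicate 3 and 4 without Sham-DMI replicate 4, and the median without Sham-DMI replicate 1 was -0.217. Of 14 barrier and transport genes 3 fell in Sham-DMI, among them Slco1a4, an organic anion transporter of the blood-brain barrier, by 0.58 ± 0.167 (0.0247). None fell without Sham-Saline replicate 3 and 1 fell without Sham-DMI replicate 1. With GC and length trends removed none of the 14 fell and 1 rose. Cav1, Slc2a1 and Abcg2, the most abundant of them per kb, passed in none of the 4 comparisons.

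Leukocyte adhesion genes went another way after injury. Vcam1, the vascular cell adhesion molecule, rose by 0.71 ± 0.18 in SNI-Saline versus Sham-Saline (adjusted p = 0.0331), from 7.34 ± 0.567 to 12.0 ± 1.91 CPM, and had 5.17 ± 1.37 CPM in Sham-DMI and 8.25 ± 2.05 CPM in SNI-DMI. The rise was lost without SNI-Saline replicate 1 (0.63, 0.108). In Sham-DMI Vcam1 fell by 0.5 ± 0.183 (0.0712), which was lost without 4 libraries in turn and with GC and length trends removed. Averaged over both surgeries it was lower after DMI, by -0.52 ± 0.128 (0.00779). Ackr1, a chemokine-binding receptor of venules, rose in Sham-DMI by 0.26 ± 0.0787 (0.0334), which was lost without Sham-DMI replicate 1 (0.21, 0.102). Sele and Selp, the selectins, were too low to test, at no more than 0.0686 and 0.226 CPM. Vcam1 is also made by glia and fibroblasts.

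In Sham-DMI versus Sham-Saline, where 11.9% of all genes passed downward, 3 of 14 other pericyte and smooth muscle markers fell and 1 rose. Their median was -0.29. Without Sham-Saline replicate 3 only 1 fell and the median was -0.101, and 1 fell without Sham-DMI replicate 1, with a median of -0.172, or without replicate 4. Abcc9, a potassium channel subunit of pericytes, fell by 0.6 ± 0.139 (adjusted p = 0.00841), from 4.4 ± 0.623 to 2.9 ± 0.359 CPM, in every fit without a library. Mcam was the most abundant of the list, at 89.6 CPM per kb against 0.428 for Abcc9. It rose by 0.17 ± 0.0497 after injury (0.0492) and by 0.16 ± 0.0497 in Sham-DMI (0.0322). These calls were lost without 4 libraries and 1 library in turn. The call of Mcam after injury was also lost with GC and length trends removed. Of 6 lymphatic markers 3 could be tested, since Prox1, Pdpn and Ccl21a were at or near 0 counts, and 2 of these fell in Sham-DMI, Lyve1 and Flt4. The call of Lyve1 (-0.31 ± 0.123, adjusted p = 0.0968) was lost in 13 of the 16 fits without a library, and none of the list passed without Sham-Saline replicate 3, without Sham-DMI replicate 1 or with GC and length trends removed. Among cells outside the vessels, 3 of 10 sensory neuron, 2 of 6 satellite glia and none of 6 Schwann cell markers rose in Sham-DMI. Of all 21371 genes 2475 passed upward there. In the same lists 1 satellite glia and 1 Schwann cell marker fell, and none of either did with GC and length trends removed. None of the 4 oligodendrocyte and spinal cord markers that could be tested passed. Without a library the rising counts ran from 2 to 5 for sensory neurons and from 1 to 3 for satellite glia.

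**Figure D5:**
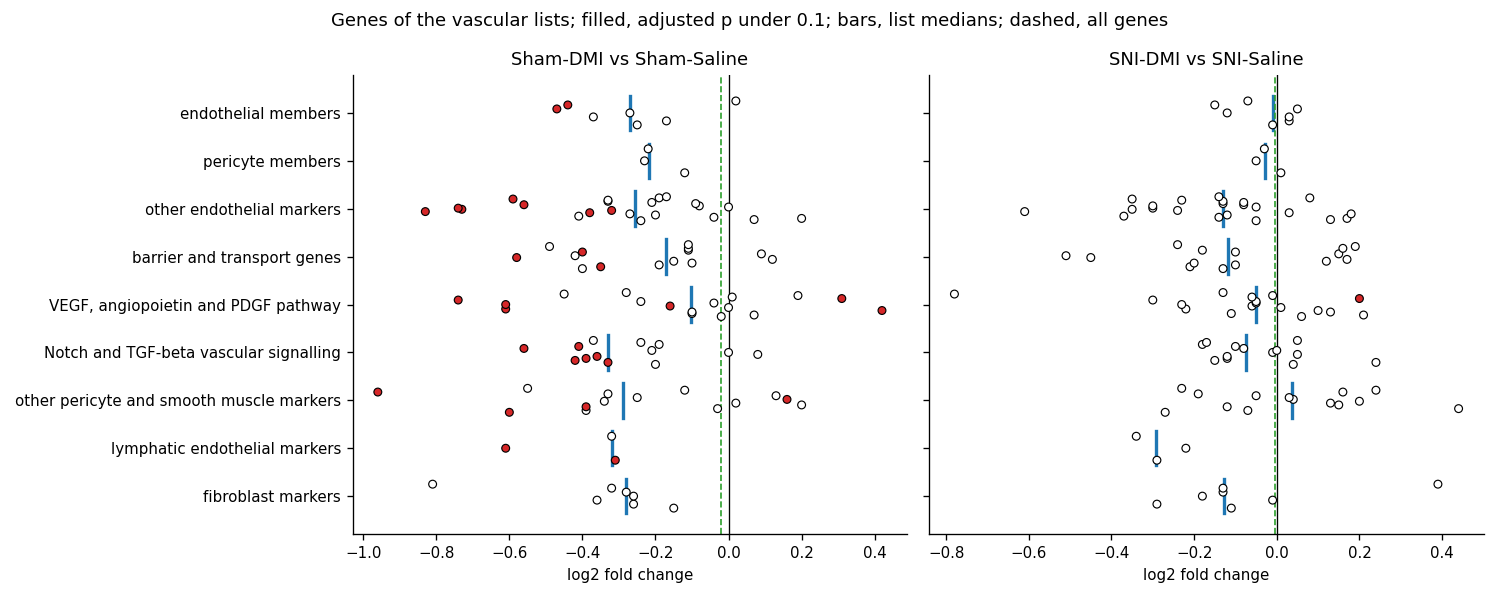
Log2 fold changes of the genes in 9 lists for DMI in sham mice and DMI in SNI mice, with 1 point per gene, filled where the adjusted p was under 0.1, blue bars at list medians and a green dashed line at the median of all genes. In sham mice the bars lie from -0.103 to -0.331, and in SNI mice all lists but the lymphatic one lie within -0.129 to 0.036.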

How the data were processed

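RNA of L3-6 DRGs was sequenced with a stranded mRNA kit as paired reads, 1 library per mouse. Per the labels the authors' processing used HISAT2, HTSeq, DESeq2 and mm10. The authors deposited raw read counts per Ensembl gene for each library, not normalized. Versions of the aligner and counter, the annotation release and the strand setting are not given in the sources used here, so reads of antisense genes may not be separated. Rows that name no gene (18.83% to 20.44% of read pairs) were left out. Gene names and positions came from GENCODE M21 (GRCm38), which held 52489 of the 52636 genes.

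All 16 libraries were fitted with edgeR 4.0.16 in R 4.3.3 (filterByExpr, TMM, glmQLFTest, 1 coefficient per group), with Benjamini-Hochberg adjustment over 21371 genes and a threshold of 0.1. CPM used TMM-scaled library sizes, and log2 CPM a prior count of 2. Correlations used 100000 permutations within groups (scipy 1.17.1). Alternatives were DESeq2 1.42.0, other scalings and filters, GC and length trends removed (mgcv 1.9.3, basis of 8), the replicate number as a block, the 8 libraries of a comparison alone and each library left out. On simulated data for the injury comparison (21090 genes, 199 changed) the fit recovered 76.4% of the changed genes, 49.2% at the smallest fold, with 7.9% false among 165 calls. Libraries were grouped by their labels. The counts of the 10 genes were 271 or more. Counting error and the number of mice both limit the precision, and their shares were not separated for each gene.

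The genes and lists were chosen with earlier results of these data known. The text names the 10 genes, all tested pathway genes, some of the up to 4 called genes with the smallest p and the 3 highest per kb of each other list, and the 5 genes most alike to each group's mean.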

Additional observations from a re-analysis of the deposited data

Results flagged for a closer look

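Ly6c1 had 10.8 CPM in Sham-DMI replicate 3, while the other 3 Sham-DMI mice had 11.7 to 11.9 CPM, a gap of 0.832 of the group's range, which passed Dixon's test. It was the only one of 40 groups of 4 libraries with such a value, and chance alone would give about 2. The value lay within the range of the Sham-Saline mice.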

How the results depend on the processing

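Of the 10 genes, Ly6c1 alone passed after injury. The count was 2 with DESeq2 and without a filter (Rgs5 with Ly6c1), 3 with the 8 libraries alone (Flt1 too) and 0 with GC and length trends removed, with or without the replicate block, and 0 to 1 without a library. The DEG rule gave 1 to 2 without a library. In Sham-DMI versus Sham-Saline 2 to 3 passed and 1 to 4 met the DEG rule without a library, with 1 left (Flt1) without Sham-Saline replicate 3. Cdh5 passed there too with DESeq2 (-0.36, adjusted p = 0.0876) and without a filter (-0.37, 0.0987). Rgs5 did so with the 8 libraries alone (-0.21, 0.0593). In SNI-DMI versus SNI-Saline none passed in any setting. In SNI-DMI versus Sham-DMI 0 to 1 passed without a library (Ly6c1 at 0.46, adjusted p = 0.0788, without SNI-DMI replicate 2), and the DEG rule gave 0 with trends removed, with or without the block, and 0 to 2 without a library. For DMI averaged over both surgeries 1 gene (Tek) passed with trends removed, with or without the block, and 1 to 3 without a library. For the difference between DMI effects 2 met the DEG rule (Flt1, Cdh5) without a filter and with the block, with or without trends removed, and 1 to 3 without a library. Of the gene pairs, 16 passed when group means were kept. The cause of these changes was not tested.

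Same-numbered mice of different groups had r from -0.081 to 0.184 (5 of 24 pairs over 0.1). Differently numbered mice had r from -0.248 to 0.169 (7 of 72 pairs over 0.1). Values this small cannot tell whether the replicate numbers pair the mice. With the replicate block 3 genes passed in Sham-DMI (Cdh5 with Tek and Flt1) and 1 after injury, and of all genes 172 in place of 626 passed in SNI-DMI versus SNI-Saline.

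With trends removed, values that changed sign, none called, were Kdr after injury (0.025, and 0.023 with the block), Pdgfrb in SNI-DMI versus Sham-DMI (-0.059, -0.057), Rgs5 averaged (0.045, 0.046) and, in SNI-DMI versus SNI-Saline, Pecam1 (0.009, 0.013), Cldn5 (-0.07, -0.07), Pdgfrb (-0.016, -0.013) and Rgs5 (0.11, 0.11). Without a library, uncalled values crossed 0 after injury for Pecam1 (-0.07 to 0.086), Cldn5 (-0.17 to 0.077), Cdh5 (-0.3 to 0.042), Kdr (-0.08 to 0.073) and Cspg4 (-0.007 to 0.2). They did so in SNI-DMI versus SNI-Saline for Pecam1 (-0.044 to 0.056), Cldn5 (-0.033 to 0.15), Cdh5 (-0.047 to 0.11), Ly6c1 (-0.2 to 0.033), Pdgfrb (-0.018 to 0.072), Rgs5 (-0.14 to 0.057) and Cspg4 (-0.12 to 0.053). In SNI-DMI versus Sham-DMI they did so for Kdr (-0.005 to 0.21) and Pdgfrb (-0.024 to 0.062), in Sham-DMI for Ly6c1 (-0.028 to 0.07), averaged for Cldn5 (-0.11 to 0.002), Ly6c1 (-0.081 to 0.027) and Pdgfrb (-0.08 to 0.006), and in the difference for Ly6c1 (-0.24 to 0.012).

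Over all genes, calls in SNI-DMI versus SNI-Saline went from 626 to 1898 with DESeq2, 1812 with 8 libraries, 51 with trends removed (90.2% upward against 45%) and 0 with the block too. After injury they went from 2571 to 1044 and 595 in those last fits. In SNI-DMI versus Sham-DMI they went from 86 to 517 with DESeq2, 310 without a filter, 217 with trends removed (46.5% upward against 93.0%) and 9 with 8 libraries. The difference had 0 calls, 16 with DESeq2 and 1 with the block and trends removed. Averaged calls were 76.2% upward with trends removed against 48.3%. Without a filter the DEG rule gave 1482, 1934 and 1932 genes in place of 738, 1224 and 1156 for the difference, SNI-DMI versus SNI-Saline and SNI-DMI versus Sham-DMI. With 4 mice a group, a true difference anywhere within a gene's 95% interval remains compatible with its values.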
